A study of Macaca mulatta with 17 samples.

Results

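The genes described here are 41 genes of glycolysis and of the response to low oxygen, chosen by name: 17 enzymes of glycolysis, 4 carriers of glucose and lactate, 3 kinases that steer the flow of sugar carbon, 4 genes of oxygen sensing and 13 genes known as targets of the hypoxia-inducible factors. A probe was taken as a member where its description on the array names the gene or an older name of it (KDM3A was listed as JMJD1A), and where several probes matched a gene the brightest of them on average was used. By this rule 37 of the 41 genes had a probe, among 20217 probes on the array, and EPAS1, EGLN1, VEGFA and ANKRD37 were not analysed here. All 37 were well above background on all 17 arrays and 0 had a saturated array.

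Glycolysis splits glucose into pyruvate and yields ATP without oxygen, and lactate dehydrogenase then turns pyruvate into lactate. When oxygen is scarce, prolyl hydroxylases no longer mark the alpha subunits of the hypoxia-inducible factors for destruction, and these transcription factors switch on glucose carriers, glycolytic enzymes and genes such as CA9, ADM and BNIP3. The same enzymes are high in dividing cells, and fetal tissues live at a lower oxygen tension than adult ones.

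Each array held RNA from the uterus of a single female rhesus macaque fetus (Macaca mulatta), taken from a frozen sagittal side of the organ that runs from fundus to cervix, so all layers and cell types were measured together. The 5 GD100 control fetuses came from dams given ethanol vehicle in a daily fruit treat from gestational day (GD) 50 to 100, and the 5 GD100 BPA fetuses from dams given deuterated bisphenol A (BPA), an estrogenic chemical used in plastics, at 400 µg/kg/day over the same days. The 4 GD165 control and 3 GD165 BPA animals came from dams given the same agents from day 100 until birth at day 165 to 168. Stillbirths occurred in both GD165 groups, and the study left the uteri of stillborn animals out of the arrays. GD100 fetuses were delivered by caesarean section and GD165 animals by vaginal birth, after which newborns were kept for up to a day, so age, mode of delivery and time after birth cannot be told apart in any comparison of the ages. Levels are log2 signals scaled to a common 75th percentile of 12.62, and a difference of 1 is a 2-fold difference. limma was fitted to all 17 arrays with two-sided tests, and a result passed at a Benjamini-Hochberg adjusted p under 0.01 over all 20217 probes. In whole tissue, fewer cells of a type and less RNA per cell cannot be told apart.

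The share of spots well above background was 83.8 to 89.0% over the arrays, which lay on 6 slides. Of the markers of smooth muscle, which should fill a uterus, 7 of 8 had a probe and all of these were well above background on every array. PGR, a defining gene of the mature uterus, was well above background on 3 of 17 arrays, and of the erythroid markers GYPB was so on 5 of 17. The probes of GAPDH, TPI1, LDHA, LDHB, PKM2, PGK1 and ENO1 read gene families with processed copies in primate genomes, and those copies could add to their signals.

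The array measures each gene with probes of 60 bases that sit near the 3′ end of the message. The start of the probe is printed here for CA9 and DDIT4, members that fell in both controls and BPA-exposed fetuses, up to the triplet that ends the protein's reading frame, which is in capitals. The first 25 bases of the CA9 probe and the first 43 of the DDIT4 probe are shown as deposited.
CA9: agaggtagccgagactggagccTAG
DDIT4: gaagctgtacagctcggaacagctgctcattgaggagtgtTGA

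From GD100 to GD165 the uterus of control fetuses lost signal for some enzymes of glycolysis and some hypoxia targets and gained signal for other hypoxia targets. Of the 37 members, 6 fell (ALDOC, GAPDH, LDHA, EGLN3, CA9 and DDIT4), 3 rose (ADM, NDRG1 and MXI1) and 28 did not pass the test. The 9 that passed are 24.3% of the members, beside 11.5% of all probes. By direction, 16.2% of the members fell, beside 5.2% of all probes, and 8.11% rose, beside 6.32%. The median log2 fold change was -0.20 over the members and 0.00 over all probes, and 26 of 37 members had a negative value. The levels of the ages did not overlap for 14 members (37.8%), beside 19.4% of all probes. These counts depended on single animals: without GD165 control replicate 1 there were 0 rises and 3 falls, without GD165 control replicate 6 there was 1 rise, and without GD100 control replicate 4 there were 3 falls.

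The age change in BPA-exposed fetuses has group means from other arrays than the control comparison, while the estimate of the spread comes from all 17 arrays in both. There 6 members fell (GAPDH, ENO1, LDHA, PFKFB4, CA9 and DDIT4), 0 rose and 31 did not pass, at 16.2% of members beside 9.68% of all probes. By direction, 4.86% of all probes fell and 4.82% rose. Beside the 0 rises from limma, 22 members had an unadjusted p under 0.05 in either direction, against 34.5% of all probes. The median was -0.21 over the members and -0.05 over all probes, and the ages did not overlap for 13 members (35.1%), beside 27.2% of all probes. GAPDH, LDHA, CA9 and DDIT4 are the 4 members that passed in both treatments, 11 passed in at least 1 and 26 in neither. With the slide as a fixed block DDIT4 alone of these 4 passed in both: GAPDH (adjusted p = 0.0200 in controls and 0.108 in BPA-exposed fetuses) and LDHA (0.0524 and 0.0663) missed the threshold in both, and CA9 missed it in BPA-exposed fetuses (0.0232). The change had the same sign in controls and BPA-exposed fetuses for 33 of 37 members (89.2%), beside 70.7% of all probes. Without scaling between arrays it was the same for 30 members (81.1%, beside 64.2% of all probes), and the members with a negative value numbered 27 in controls and 20 in BPA-exposed fetuses, against 26 and 28 with scaling. The falls numbered 3 without GD100 BPA replicate 3, without GD165 BPA replicate 3 or without GD165 BPA replicate 4, and 1 member rose without GD165 control replicate 6, which enters this comparison only through the shared estimate of the spread.

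**Figure D1:**
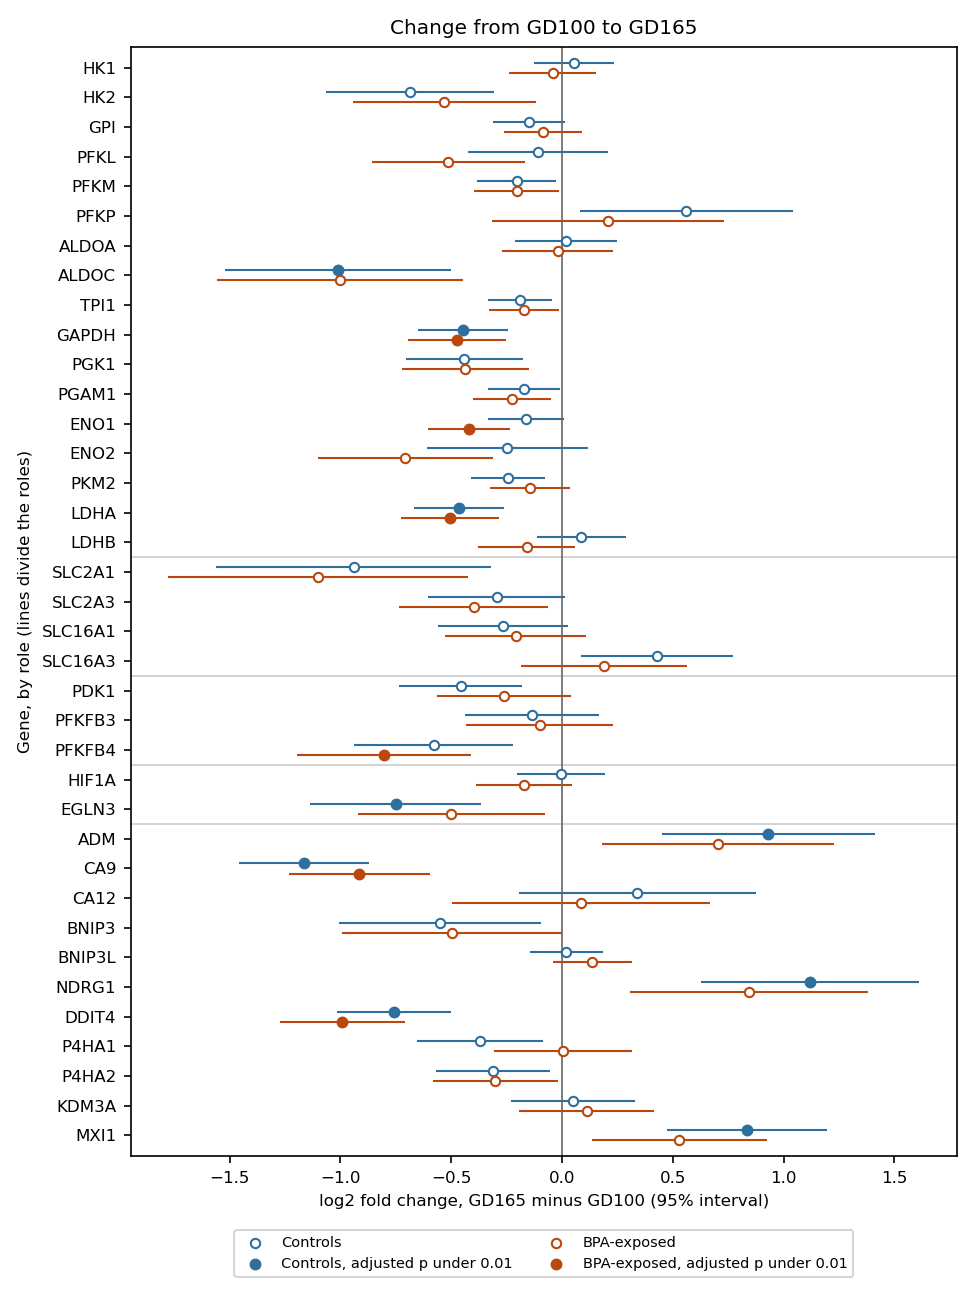
Change of each of the 37 members from GD100 to GD165 as a log2 fold change with its 95% interval, in controls (blue) and in BPA-exposed fetuses (orange), with filled points for an adjusted p under 0.01 and lines between the roles. ALDOC, GAPDH, LDHA, EGLN3, CA9 and DDIT4 lie below 0 and ADM, NDRG1 and MXI1 above 0 with filled points in controls, and the paired points of most members lie on the same side of 0.

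Averaging the age change over both treatments, an alternative added after the values were seen that uses all 17 arrays, passed 16 of 37 members (43.2%), beside 22.4% of all probes. These 16 hold all 11 members that passed in at least 1 treatment and 5 more, HK2, PGK1, ENO2, SLC2A1 and PDK1, all 5 of them lower at GD165. In this average 13 members fell and 3 rose, beside 11.1% of all probes that fell and 11.3% that rose.

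Among the enzymes of glycolysis, 3 of 17 fell in controls, 3 of 17 fell in BPA-exposed fetuses and 0 rose in either. Over all probes 5.2% fell and 6.32% rose in controls, and 4.86% fell and 4.82% rose in BPA-exposed fetuses. Negative values were found for 13 and 16 of the 17 enzymes, and for 14 and 10 without scaling between arrays. ALDOC, the brain-type aldolase that splits fructose 1,6-bisphosphate, was at 12.92, 13.13, 13.08, 12.95 and 13.06 in the 5 GD100 controls and at 11.25, 11.98, 11.86 and 12.99 in the GD165 controls with replicate numbers 1, 3, 5 and 6. GD165 control replicate 6 lay within the GD100 range and the other GD165 controls lay below it. ALDOC fell by 1.01 on the log2 scale (SE 0.24, adjusted p = 0.00725 from limma), and in the BPA-exposed fetuses its value was -1.0 (SE 0.26, adjusted p = 0.0142) with no overlap, 12.91 to 13.26 against 11.71 to 12.24. ALDOA, the main aldolase of muscle and most tissues, had values of 0.02 and -0.02.

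GAPDH, which makes the first energy-rich intermediate of the pathway and is often used as a reference gene, was at 16.99, 16.87, 17.14, 17.14 and 16.97 in GD100 controls and at 16.31, 16.80, 16.67 and 16.51 in GD165 controls. All GD165 controls lay below all GD100 controls. GAPDH fell by 0.45 (SE 0.10, adjusted p = 0.0036), which is 1.36-fold, and by 0.47 (SE 0.10, adjusted p = 0.00519) in BPA-exposed fetuses, where the ages did not overlap either.

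LDHA, the lactate dehydrogenase subunit that favors the making of lactate, was at 14.16, 13.99, 14.27, 14.29 and 14.25 in GD100 controls and at 13.78, 13.62, 13.65 and 13.85 in GD165 controls, again without overlap. In the BPA-exposed fetuses it was at 14.02, 14.23, 14.36, 14.17 and 14.15 at GD100 and at 13.47, 13.78 and 13.80 at GD165. It fell by 0.47 (SE 0.10, adjusted p = 0.00285) and by 0.51 (SE 0.10, adjusted p = 0.00365). LDHB, the heart-type subunit that favors the use of lactate, had values of 0.09 (95% interval -0.11 to 0.29) and -0.16 (95% interval -0.38 to 0.06), and the ages overlapped in both treatments.

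ENO1, the common enolase, passed in the BPA-exposed fetuses and not in controls. It was at 17.88, 17.90, 18.06, 18.00 and 17.85 in GD100 BPA and at 17.62, 17.54 and 17.40 in GD165 BPA, with no overlap. It fell there by 0.42 (SE 0.09, adjusted p = 0.00387), while in controls the value was -0.16 (SE 0.08, adjusted p = 0.178), and the test of the difference between these changes did not pass (-0.26, SE 0.12, adjusted p = 0.631). ENO2, the neuronal enolase, had values of -0.25 and -0.71, the latter at an adjusted p of 0.015.

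The other enzymes did not pass in either treatment. HK2, the inducible hexokinase, came close with -0.69 in controls (adjusted p = 0.0124) and -0.53 in BPA-exposed fetuses, and its ages did not overlap in either, while HK1, the constitutive hexokinase, had 0.05 and -0.04. PGK1, which makes ATP in the payoff phase of glycolysis, had -0.44 and -0.44. Its probe was the dimmest of the members, with means of 7.49 in GD100 controls and 7.05 in GD165 controls. PKM2, an older symbol of the muscle-type pyruvate kinase gene, had -0.24 and -0.14. TPI1, which links the triose phosphates, had -0.19 and -0.17, and PGAM1, a phosphoglycerate mutase, -0.17 and -0.23. The 3 subunits of phosphofructokinase, the committed step, had different values: PFKM had -0.20 and -0.20, PFKL -0.11 and -0.51, and PFKP 0.56 and 0.21. GPI, which turns glucose 6-phosphate into fructose 6-phosphate, had -0.15 and -0.08.

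Of the 4 glucose and lactate carriers 0 passed in controls and 0 in BPA-exposed fetuses from limma. In each, 2 of the 4 had an unadjusted p under 0.05 from limma, beside 33.1% and 34.5% of all probes. SLC2A1, the main glucose carrier of fetal tissue, was at 10.18, 9.63, 10.39, 10.71 and 10.34 in GD100 controls and at 8.90, 9.14, 9.25 and 9.94 in GD165 controls. Its GD165 BPA values were 8.64, 8.92 and 10.03, so that GD165 control replicate 6 and GD165 BPA replicate 5 lay within the GD100 range and the other 5 GD165 animals below it. The difference was -0.94 in controls (SE 0.29, adjusted p = 0.0314) and -1.10 in BPA-exposed fetuses (SE 0.32, adjusted p = 0.0234). SLC2A3, the high-affinity glucose carrier, had -0.29 and -0.40, and a second probe of it -0.46 and -0.28. Of the lactate carriers, SLC16A1 had -0.27 and -0.21, and SLC16A3, the exporter of glycolytic cells, had 0.43 and 0.19.

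Among the 3 regulatory kinases, PFKFB4, which sets the level of the activator fructose 2,6-bisphosphate, was at 10.86, 10.62, 11.26, 10.43 and 10.79 in GD100 BPA and at 9.55, 10.16 and 10.25 in GD165 BPA. The ages did not overlap. It fell by 0.80 (SE 0.18, adjusted p = 0.00679), and in controls the value was -0.58 (SE 0.17, adjusted p = 0.0231), also without overlap. PDK1, which keeps pyruvate out of the mitochondrial cycle, had -0.46 in controls (adjusted p = 0.021) and -0.26 in BPA-exposed fetuses, and PFKFB3, the other inducible kinase of this type, had -0.13 and -0.10.

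**Figure D2:**
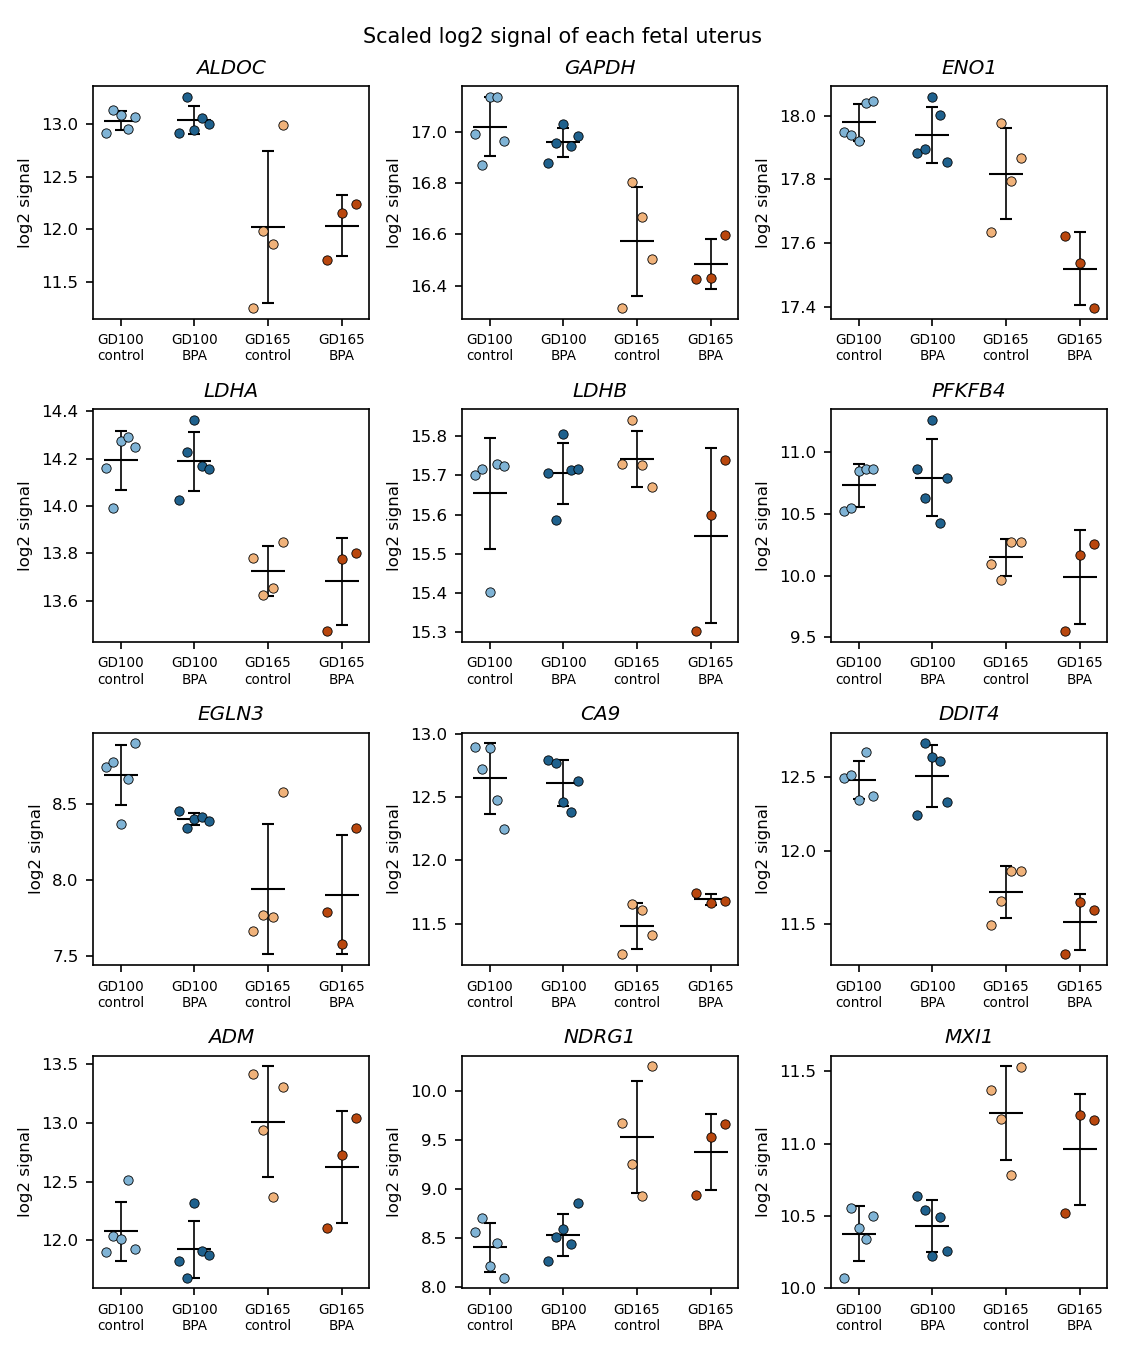
Scaled log2 signal of every fetal uterus for the 11 members that passed in an age comparison and for LDHB beside LDHA, with the mean and SD of each group as bars. GAPDH, LDHA, CA9 and DDIT4 separate the ages in both treatments, and 1 of the GD165 controls lies apart from the other 3 in ALDOC and EGLN3.

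In oxygen sensing, EGLN3, a prolyl hydroxylase that is itself induced by hypoxia, was at 8.75, 8.78, 8.37, 8.66 and 8.90 in GD100 controls and at 7.66, 7.77, 7.76 and 8.58 in GD165 controls. GD165 control replicate 6 overlapped the GD100 values and the other 3 did not. EGLN3 fell by 0.75 in controls (SE 0.18, adjusted p = 0.0083), and the value in BPA-exposed fetuses was -0.50 (SE 0.20, adjusted p = 0.0868). HIF1A, the oxygen-regulated alpha subunit, had -0.01 in controls (95% interval -0.21 to 0.19) and -0.17 in BPA-exposed fetuses (95% interval -0.39 to 0.05). Its message is known to be regulated less than its protein, and protein was not measured.

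Of the hypoxia targets 3 of 11 rose in controls, 2 fell and 6 did not pass, with a median of 0.02, beside 6.32% of all probes that rose and 5.2% that fell. In BPA-exposed fetuses 0 rose, 2 fell and 9 did not pass, with a median of 0.09, beside 4.82% and 4.86% of all probes. CA9, a carbonic anhydrase at the cell surface and a classic target of hypoxia-inducible factor, had the smallest p of the members in controls. It was at 12.89, 12.72, 12.89, 12.48 and 12.25 in GD100 controls and at 11.26, 11.65, 11.61 and 11.41 in GD165 controls. In the BPA-exposed fetuses it was at 12.79, 12.77, 12.47, 12.39 and 12.63 at GD100 and at 11.74, 11.66 and 11.68 at GD165. Every GD165 animal lay below every GD100 fetus. CA9 fell by 1.16 in controls (SE 0.14, adjusted p = 4.85e-05), which is 2.24-fold, and by 0.91 in BPA-exposed fetuses (SE 0.15, adjusted p = 0.000813). CA12, a related surface carbonic anhydrase, had 0.34 and 0.09.

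DDIT4, an inhibitor of the growth kinase mTORC1 that is induced by low oxygen and by glucocorticoids, was at 12.49, 12.51, 12.34, 12.67 and 12.37 in GD100 controls and at 11.50, 11.66, 11.86 and 11.86 in GD165 controls. In the BPA-exposed fetuses it was at 12.24, 12.73, 12.63, 12.60 and 12.33 at GD100 and at 11.30, 11.65 and 11.60 at GD165. The ages were separate in both treatments. DDIT4 fell by 0.76 (SE 0.12, adjusted p = 0.000486) and by 0.99 (SE 0.13, adjusted p = 0.000212).

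NDRG1, a gene of cell differentiation and stress that hypoxia induces, was at 8.56, 8.71, 8.22, 8.45 and 8.10 in GD100 controls and at 9.68, 9.25, 8.93 and 10.25 in GD165 controls. The ages did not overlap, and replicate 6 was the highest. NDRG1 rose by 1.12 (SE 0.23, adjusted p = 0.00298), which is 2.17-fold, and in BPA-exposed fetuses the value was 0.84 (SE 0.25, adjusted p = 0.0277), also without overlap. MXI1, a repressor that opposes MYC, was at 10.07, 10.56, 10.41, 10.34 and 10.50 against 11.37, 11.17, 10.78 and 11.53 in the controls, without overlap. It rose by 0.84 (SE 0.17, adjusted p = 0.0027), and the value in BPA-exposed fetuses was 0.53 (SE 0.18, adjusted p = 0.0541).

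ADM, which encodes adrenomedullin, a peptide that relaxes vessels and the uterus, was at 11.90, 12.04, 12.01, 12.52 and 11.93 in GD100 controls and at 13.42, 12.94, 12.37 and 13.31 in GD165 controls. GD100 control replicate 4 lay above GD165 control replicate 5, and the ages were otherwise apart. ADM rose by 0.93 (SE 0.23, adjusted p = 0.00823), and in BPA-exposed fetuses the value was 0.70 (SE 0.25, adjusted p = 0.054). These 3 rises in controls were not called in BPA-exposed fetuses, but the tests of the difference did not pass for ADM (adjusted p = 0.918), NDRG1 (0.897) or MXI1 (0.808).

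The remaining hypoxia targets did not pass. BNIP3, which marks mitochondria for removal, had -0.55 and -0.50, and its relative BNIP3L had 0.02 and 0.14. The collagen prolyl hydroxylases P4HA1 and P4HA2 had -0.37 and 0.01, and -0.31 and -0.30. KDM3A, a histone demethylase, had 0.05 and 0.11. Another 3 probes, described as variants of vascular endothelial growth factor without a gene symbol and not taken as VEGFA by the rule, had values of -0.41, -0.30 and -0.23 in controls (adjusted p = 0.0582, 0.241 and 0.413) and of -0.11, 0.00 and 0.01 in BPA-exposed fetuses.

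Pairs of related genes were set against each other on the same array, as a description with no test, for the 12 of 14 pairs in which both had a probe. The log2 ratio of LDHB to LDHA was 0.55 higher at GD165 in controls and 0.35 higher in BPA-exposed fetuses, and the ages did not overlap in either. The ratio of CA12 to CA9 was 1.5 and 1.0 higher, also without overlap. HK2 to HK1 was 0.74 and 0.49 lower, and ALDOC to ALDOA 1.03 and 0.98 lower, both without overlap. In controls the ages did not overlap for 7 of the 12 ratios and in BPA-exposed fetuses for 5 of the 12. Of all single probes 19.4% and 27.2% did not overlap, and the share among ratios of other probes was not computed. The ratio of PFKM to PFKL, of P4HA2 to P4HA1 and of ENO2 to ENO1 overlapped between the ages in both treatments.

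**Figure D3:**
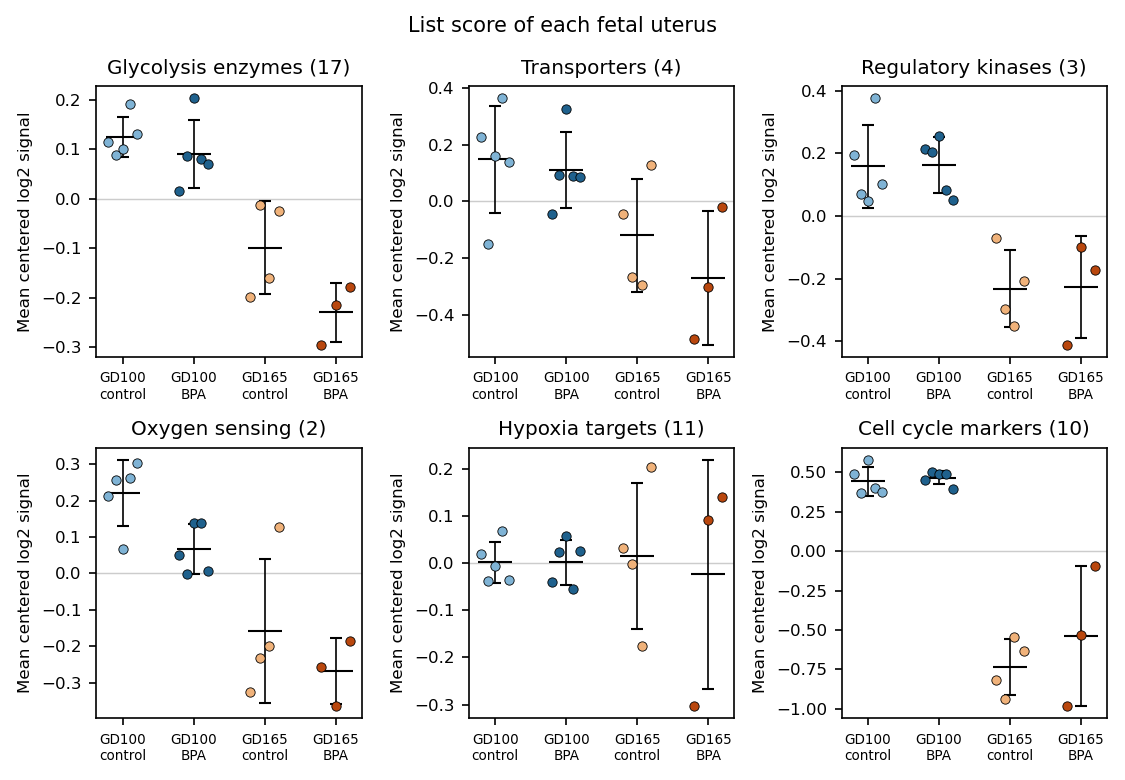
Score of every fetal uterus for each role and for the cell cycle markers, the mean over the genes of the log2 signal minus that gene's mean over the 17 arrays, with the mean and SD of each group as bars and the number of genes in parentheses. The enzymes and the regulatory kinases are lower in all GD165 animals than in all GD100 fetuses, as the cell cycle markers are, while the hypoxia targets spread more widely at GD165 with means near 0.

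A score over the members of each role, the mean of their centered log2 signals, shows how the animals varied. For the enzymes it was 0.13 ± 0.04 (SD, n = 5) in GD100 controls, 0.09 ± 0.07 (n = 5) in GD100 BPA, -0.10 ± 0.09 (n = 4) in GD165 controls and -0.23 ± 0.06 (n = 3) in GD165 BPA. For the hypoxia targets the group means lay between -0.02 and 0.01, and the SD was 0.04 and 0.05 at GD100 against 0.16 and 0.24 at GD165. The highest hypoxia target scores at GD165 were those of control replicate 6, at 0.20, and BPA replicate 5, at 0.14. GD165 BPA replicate 5 was the highest of its 3 animals in 22 of 37 members (59.5%), beside 38.2% of all probes. Its skeletal muscle marker score was 3.43, against 0.03 and -0.43 in BPA replicates 3 and 4, and its cell cycle marker score was -0.10, against -0.98 and -0.53. A higher skeletal muscle score, 3.89, was that of GD165 control replicate 5, whose hypoxia target score was the lowest of the GD165 controls, at -0.17. GD165 control replicate 6 had the highest squamous epithelium (3.27), adipose (3.32) and neural (1.77) marker scores of the GD165 controls, whose other scores reached 0.65, 0.50 and 0.61. In the squamous list SPRR3, DSG3, SPRR1B and KRT6A were well above background on 1, 2, 9 and 16 of 17 arrays, and the adipose score rested on 2 genes. The part of all these marker lists in the members' values was not tested. At GD100, control replicate 4 was the highest of 5 in 16 members (43.2%, beside 16.8% of all probes) and BPA replicate 3 in 15 (40.5%, beside 18.9%), and these 2 arrays lay on the same slide. GD100 control replicate 1 lay on that slide too and was the highest of 5 in 6 members (16.2%, beside 13.6%).

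Other gene lists changed with age too, and the part of these lists in the members' result was not tested. In controls the cell cycle markers had negative values, as most members did. The skeletal muscle, endothelial, leukocyte and smooth muscle markers had mostly positive ones. Over all probes 6.32% rose and 5.2% fell in controls, and 4.82% rose and 4.86% fell in BPA-exposed fetuses. All 10 cell cycle markers with a probe fell in controls and in BPA-exposed fetuses, and their summed signal ranged from 110170 to 124569 in GD100 controls and from 42514 to 57671 in GD165 controls. In BPA-exposed fetuses it ranged from 108687 to 120800 and from 42412 to 86521. The paper's protein staining for a marker of dividing cells showed no significant fall at GD165. The paper left the impact of the cell cycle RNA changes uncertain. Of the skeletal muscle markers 4 of 13 rose in controls and 1 in BPA-exposed fetuses, in controls with a summed signal of 15703 to 17657 at GD100 and 26579 to 221179 at GD165, and CKM, which defines the list, was well above background on 7 of 17 arrays. Of the leukocyte markers 3 of 11 rose in controls (44271 to 58037 against 103985 to 127490), and of the endothelial markers 1 of 8 rose (69227 to 99787 against 109616 to 187097). Of the erythroid markers 1 of 11 rose in controls and 0 fell, while 1 rose and 2 fell in BPA-exposed fetuses, with summed signals of 248789 to 420305 in GD100 controls, 440668 to 655521 in GD100 BPA, 444731 to 1261710 in GD165 controls and 320667 to 870696 in GD165 BPA. Further lists changed in controls: 2 of 8 neural, 2 of 7 smooth muscle and 1 of 2 adipose markers rose. Of the 8 markers of the uterus and Mullerian duct 2 rose and 2 fell. Of the 9 squamous epithelium markers 0 passed, and 3 had an unadjusted p under 0.05 from limma, beside 33.1% of all probes.

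Slides could be compared where they held both ages. On the 2 slides that held controls of both ages, each with 1 animal a group, all 9 members that passed had the same sign as in the full comparison, with CA9 at -1.24 and -0.99 and NDRG1 at 1.04 and 1.58. On the 1 slide with BPA-exposed fetuses of both ages, all 6 members that passed did too, with CA9 at -0.95 and DDIT4 at -0.73. The arrays on these slides are part of the full comparisons that picked these members, so the matching signs are not a separate check. With the slide as a fixed block, 2 members fell in controls and 1 in BPA-exposed fetuses. Of the rises in controls, ADM and NDRG1 still passed with that block and MXI1 did not.

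Among 68 other genes of the same pathways, 60 had a probe, and in controls 7 rose, 3 fell and 50 did not pass, at a median of 0.16. The 10 that passed are 16.7% of these genes, beside 11.5% of all probes. In BPA-exposed fetuses 3 rose, 3 fell and 54 did not pass, at a median of 0.09, which is 10.0% beside 9.68% of all probes, and 5 genes passed in both treatments. Among the rises in controls were SLC2A12, a glucose carrier of muscle and fat, by 1.46 (SE 0.29, adjusted p = 0.00258), BHLHE40, a clock repressor that hypoxia induces, by 1.29 (SE 0.17, adjusted p = 0.000134), and CITED2, which competes with hypoxia-inducible factor for its coactivators, by 1.12 (SE 0.18, adjusted p = 0.000468). Their values in BPA-exposed fetuses were 1.44, 1.27 and 1.07, and all 3 passed there too.

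Among the falls were HIF3A, an alpha subunit whose short forms restrain the other hypoxia-inducible factors, by 1.17 (SE 0.12, adjusted p = 1.86e-05), and HIG2, a lipid droplet protein that hypoxia induces, by 0.62 (SE 0.10, adjusted p = 0.000456). HIF3A was 13.56 ± 0.14 (SD, n = 5) in GD100 controls and 12.40 ± 0.23 (n = 4) in GD165 controls, and it fell by 1.23 in BPA-exposed fetuses (adjusted p = 6.05e-05). Its other two probes, for other transcript variants, had -0.79 (adjusted p = 0.000962) and -0.86 (adjusted p = 0.0126) in controls.

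BPA exposure was compared with vehicle at each age. At GD100, 0 of 37 members passed, with 0 of all 20217 probes past the threshold (0%), 2 members had an unadjusted p under 0.05, beside 3.79% of all probes, and the groups did not overlap for 0 members, beside 0.782% of all probes. At GD165, 0 of 37 passed, again with 0% of all probes, and 1 member had an unadjusted p under 0.05, beside 8.61%. The paper used an error-weighted test over the probes of the array with the same cutoff of 0.01. It reported significant BPA differences at GD165, some of them also measured by PCR, and minimal ones at GD100. That test was not repeated here, so the 0% at each age holds for limma only. The cause of the different outcomes was not tested. The interaction, which tests whether the BPA effect differs between the ages, passed for 0 members and 0% of all probes, and 1 member, ENO1, had an unadjusted p under 0.05 there, beside 7.83%. The median over the members was 0.01 at GD100 and -0.09 at GD165, beside 0.01 and -0.02 over all probes. Within the 3 slides that held both treatments at GD100 it was 0.02, 0.02 and -0.07, and within the 1 such slide at GD165 it was -0.07. Leaving out 1 animal gave medians of -0.12 to 0.00 at GD165, with -0.00075 without GD165 BPA replicate 3 and -0.056 without GD165 control replicate 6, and of -0.04 to 0.01 at GD100. No alternative setting (0 of those run) passed a member in these comparisons at an adjusted p of 0.01, and none (0) did at 0.05.

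At GD100 the 3 members with the smallest p, none of which passed, were HK2, PKM2 and SLC16A1. HK2 was at 11.68, 11.39, 11.64, 11.70 and 11.59 in controls and at 10.91, 11.45, 11.65, 11.03 and 10.83 in BPA-exposed fetuses, so that 3 of the 5 exposed fetuses lay below the controls and 2 within them. Its difference was -0.43 (95% interval -0.79 to -0.07, adjusted p = 1.0 from limma). PKM2 had -0.16 (SE 0.07) and SLC16A1 -0.27 (SE 0.13), both also at an adjusted p of 1.0.

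At GD165 the 3 members with the smallest p were ENO1, PFKL and LDHB, all lower with BPA and none past the threshold. ENO1 was at 17.64, 17.98, 17.79 and 17.87 in controls and at 17.62, 17.54 and 17.40 in BPA-exposed animals, and the groups did not overlap. The difference was -0.30 (95% interval -0.49 to -0.10, adjusted p = 0.419). PFKL had -0.36 (SE 0.17, adjusted p = 0.579), where BPA replicate 5, at 14.31, lay apart from BPA replicates 3 and 4 at 15.23 and 15.07, and LDHB had -0.20 (SE 0.11, adjusted p = 0.637). CA9 was the only other member without overlap, at 0.21 higher with BPA (adjusted p = 0.754), so that 5.41% of the members did not overlap, beside 7.31% of all probes. For the interaction the 3 smallest p were those of ENO1 (-0.26, adjusted p = 0.631), P4HA1 (0.38, adjusted p = 0.677) and PFKL (-0.40, adjusted p = 0.689).

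**Figure D4:**
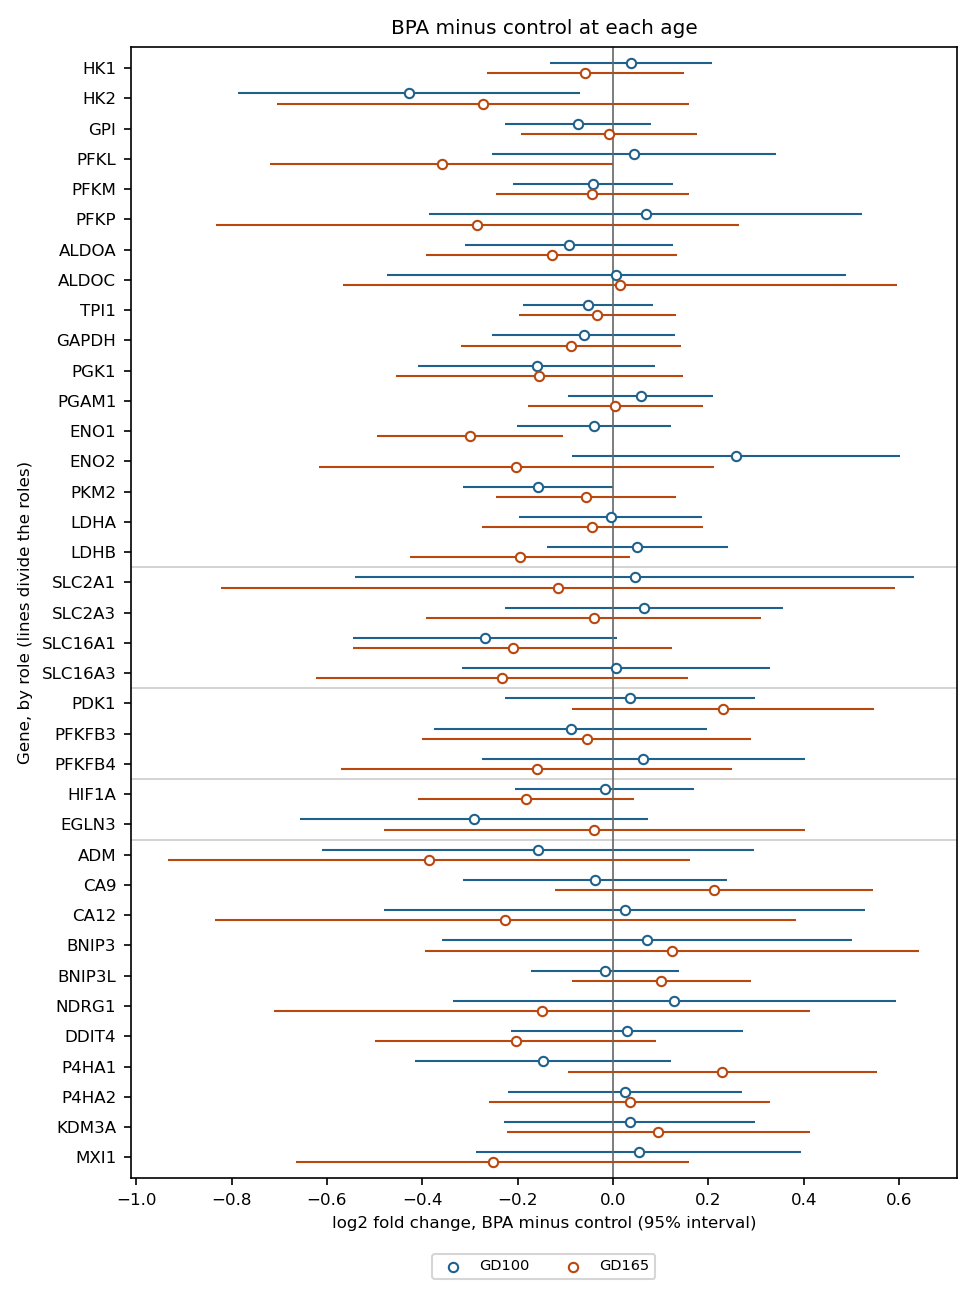
Difference between BPA-exposed and control fetuses for each of the 37 members as a log2 fold change with its 95% interval, at GD100 (blue) and GD165 (orange). All points are open, since no member passed, and every interval lies between -1 and 1.

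The intervals give the sizes that these comparisons leave possible. At GD100 the 95% intervals of all 37 members lay within -1 to 1 on the log2 scale, with bounds from -0.79 to 0.63, and 27 lay within -0.5 to 0.5. At GD165 all 37 again lay within -1 to 1, with bounds from -0.93 to 0.64, and 20 lay within -0.5 to 0.5. For LDHA the interval was -0.20 to 0.19 at GD100 and -0.28 to 0.19 at GD165, and for CA9 it was -0.31 to 0.24 and -0.12 to 0.54. SLC2A1, with SE of 0.27 and 0.33, was the least precise member in both comparisons.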

How the data were processed

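RNA of 17 fetal uteri was measured on 1-color Agilent rhesus arrays. The authors deposited linear intensities from Feature Extraction (9.5 per the submitters' processing notes), which subtracts background and detrends but does not scale between arrays; the authors' value table held the same intensities as the scanner files in 711467 of 711467 cases at a relative tolerance of 1e-05. Spots were paired by probe (2 each), outlier spots left out and the log2 signals averaged, and each array's 75th percentile was subtracted. limma 3.58.1 (R 4.3.3; lmFit, eBayes) was fitted to 4 groups without other terms. The error-weighted test of the study's software was not repeated. Tables and plots used Python 3.11.15, numpy 2.4.6, pandas 2.3.3 and matplotlib 3.10.9, and the limma steps were tested on simulated data. The precision is limited by 3 to 5 arrays a group, each from a separate animal.

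The members and all gene lists were chosen with earlier results of these data known. The text gives every member, with values per animal for those past an adjusted p of 0.01 in a comparison or, where none passed, with test values for the 3 smallest p; SLC2A1 was described per animal after its values were seen. Of the other pathway genes it names up to 4 rises and 4 falls past the threshold in controls, of which some are not reported here. Beside averaging the age change, the count of signs under each scaling was added after the data were seen. Alternatives were normexp background correction (offset 50), scaling to the median, quantile normalization, no scaling, a filter for probes above background, outlier spots kept, the compared groups only, trend and robust moderation, error weights, slide or replicate blocks, a threshold of 0.05, the mean over a gene's probes and leaving out each animal. Genome positions are not given, since the coordinates in the files mix genomes.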

Additional observations from a re-analysis of the deposited data

Results flagged for a closer look

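A single animal lay far from the others of its group in 7 of 111 member and group combinations with 4 or 5 animals, 6.31% beside the 5% that chance gives, so the flags as a set are near what chance gives. At GD165, control replicate 6 was the highest control for EGLN3, at 8.58 against 7.66 to 7.77, and for KDM3A, at 13.18 against 12.43 to 12.54. At GD100, control replicate 4 was the highest for ADM, at 12.52 against 11.90 to 12.04, control replicate 3 the lowest for LDHB, at 15.40 against 15.70 to 15.73, and control replicate 2 the lowest for SLC2A3, at 10.39 against 10.74 to 10.82. In the GD100 BPA group replicate 2 was the lowest for PFKM, at 13.39 against 13.50 to 13.53, and for P4HA2, at 13.74 against 14.21 to 14.26. Groups of 3 animals were not examined in this way.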

How the results depend on the processing

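Of the counts of members, those for BPA at either age and for the interaction were 0 under every alternative run. The 6 falls and 3 rises with age in controls were 2 and 0 when the compared groups alone were fitted, 2 falls with the slide as a fixed block, 0 rises with a replicate block, 12 falls at an adjusted p of 0.05, and 13 falls with the age change averaged over both treatments; leaving out 1 animal gave 3 to 6 falls and 0 to 3 rises. The 6 falls in BPA-exposed fetuses were 2 without scaling, 1 with the slide as a fixed block and 11 at 0.05, and 3 to 7 with 1 animal left out; the 0 rises were 1 at 0.05 and 0 to 1 with 1 animal left out. The 10 other pathway genes in controls were 6 with the compared groups only, 6 with the replicate block, 22 at 0.05, 20 with the age change averaged, and 7 to 14 with 1 animal left out. The 15 age results of single members that passed kept their direction in every alternative run, and CA9 in controls and DDIT4 in both treatments stayed past the threshold in all of them, with adjusted p of 1.99e-05 to 0.00262 for CA9, 0.000238 to 0.00633 and 8.75e-05 to 0.00603 for DDIT4. CA9 in BPA-exposed fetuses missed it with the slide as a fixed block (adjusted p = 0.0232). ALDOC, EGLN3 and ADM missed it in 11, 13 and 12 of the 17 cases with 1 animal left out. The median over the members moved by more than the spread between animals without scaling, from -0.21 to -0.03 for age in BPA-exposed fetuses and from -0.09 to 0.07 for BPA at GD165, where the median over all probes was 0.13 and 0.14. Same-numbered animals did not clearly deviate together (3 of 19 pairs over 0.1, r from -0.17 to 0.16). No pairing by number was seen, though so few animals cannot exclude a weak one, and the replicate block is an alternative only. The cause of each change between settings was not tested.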
